A study of Mus musculus with 42 samples.

Results

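The effect of IL-21 after 72 h was measured in uterine tissue-resident natural killer (trNK) cells kept in culture, by bulk RNA sequencing of 2 libraries with IL-21 and 2 libraries without it, out of 42 samples in the whole series and 16 in the time course. The cells were trNK-V, the least differentiated of 3 subgroups that the study sorts by the surface proteins 4-1BB and CD55 (4-1BB-/low CD55-/low), from pregnant wild-type females (C57BL/6) aged 8 to 12 weeks, at gestational day (gd) 6.5. All time course cultures received IL-15, at 10 ng/ml by the sample characteristics and the methods and at 15 ng/ml by the treatment note, and those of the IL-21 groups also 20 ng/ml IL-21. Cells were harvested at 0, 6, 24 and 72 h. The comparison was made over the 3503 genes, of 54446 counted, that exceeded 10 RPKM (counts scaled to gene length and to the library total) in both libraries of at least 1 time course group. The labels number the libraries 1 and 2 and do not say whether they came from separate mice or cultures. The p-values rest on the spread between libraries of a group, estimated over all 16 of the time course. That spread may be technical.

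IL-21 is a cytokine of activated T cells that binds a receptor made of IL-21R and the common gamma chain Il2rg, which IL-15 and IL-2 receptors also use. It signals through JAK1 and JAK3 mainly to STAT3, which binds DNA at paired half-sites of the form TTCNNNGAA. In NK cells it is known for raising the content of cytotoxic granules. Granzymes are the proteases of those granules, and perforin forms the pores through which they enter a target cell. Uterine trNK cells of early pregnancy fill with granules while they divide, and IL-15 is the cytokine that keeps them alive and in cycle.

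At 72 h the 4 libraries were less alike than those of the other times. They held 28541369 to 41644246 counts, and all 16 libraries 28541369 to 66468883. In the 2 libraries without IL-21, 10728 and 11671 genes had a count, against 14004 and 12004 with IL-21. Mitochondrially encoded genes took 8.44% and 11.8% of the counts without IL-21 and 4.37% and 5.73% with it. This share was also lower with IL-21 at 24 h (4.76% and 4.58% against 2.28% and 2.80%) and at 6 h (3.57% and 3.78% against 2.54% and 1.90%). At 0 h it was not (3.80% and 4.01% against 5.42% and 4.20%). Of the 3503 genes, 1049 differed over 2-fold between the 2 libraries without IL-21 and 973 between the 2 with IL-21, whereas this number was 36 to 539 in the other 6 groups. The number of these genes with 0 counts in both libraries was 67 without IL-21 and 7 with it, against 0 to 2 elsewhere. The transcript of Gapdh, a common reference gene, stood at 11.2 and 7.56 RPKM without IL-21 and at 68.1 and 10.8 RPKM with it. The other 12 libraries held 38.7 to 162.4 RPKM. Actb, itself called higher, stood at 436 and 285 RPKM without IL-21 and 1875 and 549 RPKM with it, and elsewhere at 1003 to 2421 RPKM. B2m went the other way, with 53275 and 56017 RPKM without IL-21, 37976 and 63308 RPKM with it, and 18437 to 38683 RPKM elsewhere. These reference genes were chosen here after their values were seen. All 9 trNK markers checked, among them Ncr1 and Klrb1c, had counts in all 4 libraries. Their summed level was 9697 to 16198 RPKM, most of it from the granule gene Nkg7, so it says little about cell identity. The list also holds Cxcr6, which the study sorted trNK cells against, and Itga2, the gene of the DX5 antigen. The study describes DX5 as a marker of mature conventional NK cells that trNK cells lack. Counts for all 9 therefore do not mark trNK cells alone. Of the 7 markers tested, 2 had a log2 fold change above 0 (median -0.33), and 0 were called. Some markers of other cell types moved with IL-21. The summed macrophage markers were at 9.19 and 0 RPKM without IL-21 and at 68.9 and 30.8 RPKM with it. Of the 9, 7 were at 0 throughout, Adgre1, C1qa and Lyz2 among them. The sum is thus that of Cd68 and Itgam, and the study names Itgam as a gene used to follow NK cell maturation. The summed ILC markers, of which 5 of 7 had counts, were at 96.0 and 9.37 RPKM without IL-21 and at 118.5 and 99.5 RPKM with it. Of 9 T cell markers 7 had counts, with sums of 743 and 367 RPKM without IL-21 and 734 and 662 RPKM with it, and all 4 that were tested had a log2 fold change above 0 (median 1.56). None of the 4 was called, but 3 were without replicate 1 of the libraries without IL-21 (median 2.93), 2 by limma-voom and 1 by DESeq2. The 1 tested macrophage marker was called higher without either library without IL-21 and by limma-voom, and the 1 tested ILC marker and the 1 tested stromal marker without replicate 1 of the libraries without IL-21. B and plasma cell markers, 4 of 8 with counts, summed to 143.4 and 111.2 RPKM without IL-21 and to 270.1 and 96.3 RPKM with it, and neutrophil, stromal and erythrocyte markers summed to at most 12.6 RPKM. The part that these differences between libraries had in the results was not tested.

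With IL-21, 230 genes were called higher (6.57% of those tested) and 53 lower (1.51%), 8.08% in all. A call required a change of more than 2-fold together with an adjusted p under 0.05, and "rose" and "fell" are used here for called genes, with those under 2-fold named as such. Adjusted p-values are those of edgeR's quasi-likelihood test with Benjamini-Hochberg adjustment over all 3503 genes, in 1 fit of all 16 libraries, and log2 fold changes are given with their standard error and use edgeR's scaling, so they need not equal the ratio of the printed RPKM. The median log2 fold change of all genes was 0.05. Both IL-21 libraries lay above both libraries without it for 756 genes (21.6%) and below for 582 (16.6%); among the calls this held for 216 of the 230 higher genes and for all 53 lower ones. Of the 230 higher genes, 56 had 0 counts in both libraries without IL-21, and 43 of those were detected in both IL-21 libraries. For such genes a fold change is a lower bound, computed against 3 counts per library.

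The calls leaned on the spread that the other time points lent to the fit. With only the 4 libraries of 72 h in the fit, edgeR called 0 genes in either direction, while 206 had an unadjusted p below 0.05. DESeq2 called 354 higher and 121 lower and limma-voom 273 and 75. Leaving out replicate 1 of the libraries without IL-21 gave 696 higher and 212 lower, leaving out replicate 2 gave 313 and 66, leaving out IL-21 replicate 1 gave 143 and 102, and leaving out IL-21 replicate 2 gave 367 and 169. In all 4 of these fits, 117 of the 230 higher genes and 10 of the 53 lower genes were called in the same direction, and 41 of those 117 were at 0 counts in both libraries without IL-21.

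**Figure D1:**
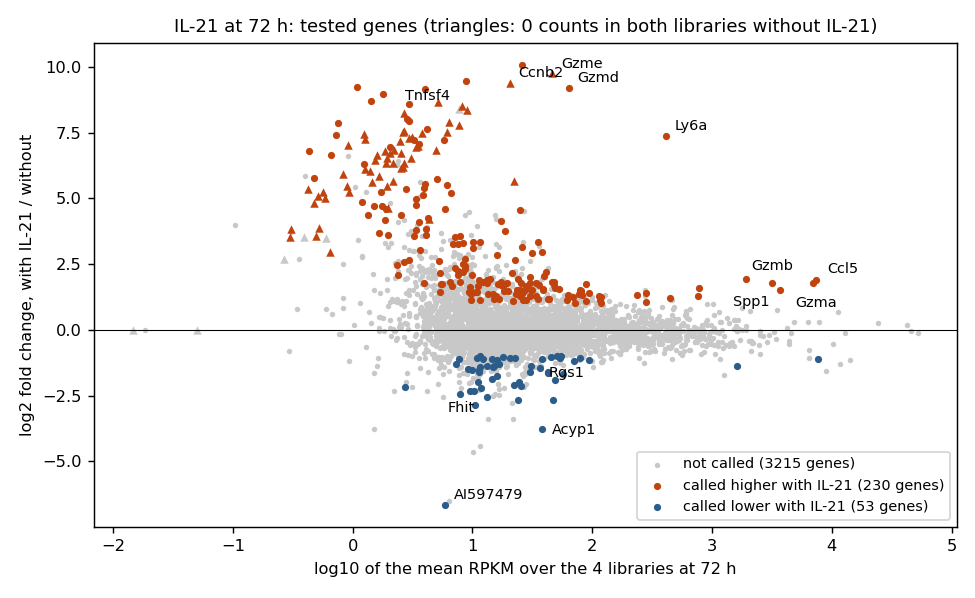
Each point is 1 tested gene, placed by the log10 of its mean RPKM over the 4 libraries of 72 h (x) and its log2 fold change with IL-21 over without (y); triangles are genes with 0 counts in both libraries without IL-21, drawn at their lower bound, and 5 genes with 0 counts in all 4 libraries are not drawn. The 230 genes called higher spread up to a log2 fold change near 10 at low mean levels, whereas the highly expressed Gzmb, Gzma, Ccl5 and Spp1 lie between 1.53 and 1.94.

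Genes of the cytotoxic granule rose in part. Of the 26 genes of the list 17 were tested, of which 6 rose and 0 fell (the background was 6.57% higher), 10 had both IL-21 libraries above both others (background 21.6%), and the median log2 fold change was 1.31. Their summed level was 15594 and 15273 RPKM without IL-21 and 37256 and 34658 RPKM with it, and these sums did not overlap between the groups. A large part of each sum was Nkg7, which was not called. Single granzymes differed more between replicates than the sums did. Gzmb, the granzyme that cleaves caspases in the target cell, stood at 987 and 517 RPKM without IL-21 and 4336 and 1881 RPKM with it (log2 fold change 1.94 ± 0.36, adjusted p = 0.00724). The groups did not overlap, although the 2 IL-21 libraries differed over 2-fold from each other. Gzma, a tryptase of the same granules, stood at 1518 and 4499.8 RPKM without IL-21 and 9217 and 12564 RPKM with it (1.77 ± 0.48, adjusted p = 0.0405); without IL-21 replicate 2 its adjusted p was 0.118.

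Near Gzmb (chr14:56258838-56262260, mm10) lie near-identical granzyme genes that NK cells of the uterus use. Gzme (chr14:56117626-56120625) had 0 counts in both libraries without IL-21 and 134 and 50.8 RPKM with it, at least 869-fold higher (adjusted p = 3.24e-05), the largest fitted rise among the calls. Gzmd stood at 0 and 0.349 RPKM without IL-21 and 132 and 122 RPKM with it (adjusted p = 5.59e-05). Gzmc was abundant in all libraries, with 1569 and 1128 RPKM without IL-21 and 6467 and 3436 RPKM with it (1.77 ± 0.27, adjusted p = 0.00203). Gzmf, with 9.37 and 16.1 RPKM without IL-21 and 72 and 5.26 RPKM with it, overlapped between the groups (adjusted p = 0.310). Reads of these paralogs can be assigned to one another, so the split between them is uncertain. Ctsc, the cathepsin that activates granzymes by trimming their ends, rose from 18.9 and 30.3 to 119 and 45.1 RPKM (1.55 ± 0.35, adjusted p = 0.0211), but had an adjusted p of 0.114 without IL-21 replicate 1. Gzmb, Gzmc, Gzmd and Gzme were called in each of the 4 fits that left out 1 library.

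Other granule genes did not pass. Prf1, perforin, stood at 16.2 and 8.15 RPKM without IL-21 and 32.4 and 12.8 RPKM with it, so that the second IL-21 library lay below the first library without IL-21 (log2 fold change 0.77 ± 0.42, adjusted p = 0.291). Nkg7, a granule membrane protein, reached 9779 and 7393 RPKM without IL-21 and 13856 and 14489.9 RPKM with it (adjusted p = 0.0985), and Srgn, the proteoglycan that packs granzymes, 1234 and 1240.5 RPKM without IL-21 and 1448 and 1618 RPKM with it (adjusted p = 0.516). Serpinb9, the inhibitor that shields the cell from its own granzyme B, was at 24.2 and 3.89 RPKM without IL-21 and 60.0 and 28.5 RPKM with it (adjusted p = 0.0858). Fasl and Tnfsf10, the death receptor ligands, had adjusted p-values of 0.968 and 0.399.

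**Figure D2:**
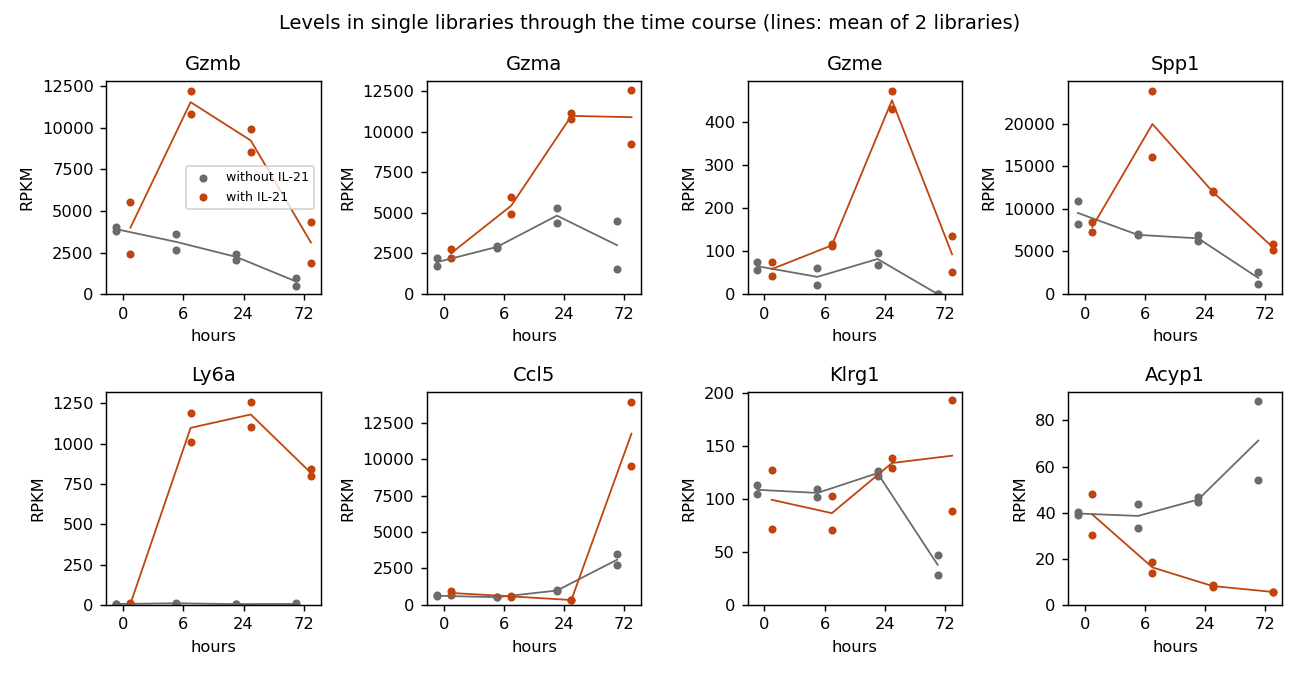
RPKM (y, linear, from 0) of 8 genes in single libraries at 0, 6, 24 and 72 h of culture (x, not to scale), with IL-21 in orange and without in grey; each point is 1 library and lines join the means of the 2 libraries. At 72 h the IL-21 libraries lie above those without IL-21 for Gzmb, Gzma, Gzme, Spp1, Ly6a, Ccl5 and Klrg1 and below for Acyp1.

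The promoter windows of the genes that rose were searched for TTCNNNGAA, which reads the same on both strands. RefSeq windows of 300 bases (GRCm38.p6, 250 before to 50 after the start) were matched for 170 of the 230 higher and 42 of the 53 lower genes. The letters occurred in 17 of the 170 (10.0%) and 5 of the 42 (11.9%), beside 8.03% of the 2517 tested genes with a window and 9.55% of all 27025 genes with one. None of the 8 largest rises with a window held them. Among the 45 named genes called higher with a window, 4 did, namely Gzmb, Ctsc, Ifnar2 and Ebp. The windows of the 2 granule genes are shown, with the match in capitals, for Gzmb at chr14:56262285-56262584 (minus strand) and Ctsc at chr7:88277835-88278134 (plus strand).
Gzmb: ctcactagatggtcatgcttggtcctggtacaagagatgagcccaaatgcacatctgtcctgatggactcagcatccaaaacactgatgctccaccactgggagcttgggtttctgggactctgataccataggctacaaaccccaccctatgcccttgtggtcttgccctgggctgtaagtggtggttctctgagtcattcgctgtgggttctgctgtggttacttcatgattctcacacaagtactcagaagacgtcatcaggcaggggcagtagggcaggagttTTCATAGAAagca
Ctsc: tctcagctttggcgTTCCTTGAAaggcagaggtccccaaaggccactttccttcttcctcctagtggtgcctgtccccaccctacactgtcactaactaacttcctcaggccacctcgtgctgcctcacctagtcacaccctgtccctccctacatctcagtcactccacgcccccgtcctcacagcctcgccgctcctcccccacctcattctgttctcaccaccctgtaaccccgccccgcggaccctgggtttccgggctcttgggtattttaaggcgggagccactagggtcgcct
Counted from the start that RefSeq gives, the match begins at position 38 for Gzmb and at position -236 for Ctsc. The whole Gzmb window lies upstream of the gene as the mm10 coordinates given above place it, since RefSeq starts the gene farther upstream. It is a match of letters and not a measured binding site.

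The study follows trNK cells through 3 stages with a set of stage genes. Of 10 tested genes that it describes as higher in differentiated cells, 4 rose (Gzma, Gzmb, Klrg1 and Spp1), beside a background of 6.57%. The median log2 fold change of the 10 was 1.05. The list was drawn from the same study and is not independent evidence of direction. Spp1, which encodes the secreted matrix protein osteopontin, stood at 2573 and 1213 RPKM without IL-21 and 5179 and 5831 RPKM with it (1.53 ± 0.32, adjusted p = 0.0148), and its adjusted p was 0.0533 without replicate 2 of the libraries without IL-21. Klrg1, an inhibitory receptor of mature NK cells that binds cadherins, stood at 28.2 and 47.5 RPKM without IL-21 and 193 and 88.7 RPKM with it (1.72 ± 0.36, adjusted p = 0.0132; 0.0624 without IL-21 replicate 1). Tnfrsf9, the gene of 4-1BB, was at 87.8 and 48.1 RPKM without IL-21 and 289.8 and 86.3 RPKM with it, where the second IL-21 library lay just below the first library without IL-21 (1.32 ± 0.40, adjusted p = 0.0612). It was called by DESeq2 (adjusted p = 0.0115), and with edgeR without IL-21 replicate 2 (0.00673) or without replicate 1 of the libraries without IL-21 (0.0287). Cd55, the complement regulator that serves as the other sorting marker, was at 49.3 and 15 RPKM without IL-21 and 38.3 and 40.9 RPKM with it (adjusted p = 0.671), and the sign of its fold change turned with the library left out. Of 4 tested genes described as lower in differentiated cells, 0 were called. Among them, Cd27, Tcf7 and Il10rb had adjusted p-values of 0.269, 0.290 and 0.413.

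Among lineage factors, 0 of 6 tested were called, beside a background of 8.08% in either direction. Eomes, the T-box factor that NK cells need, was at 15.3 and 38.4 RPKM without IL-21 and 10.4 and 11.5 RPKM with it (log2 fold change -1.40 ± 0.45, adjusted p = 0.0761). It was called lower without replicate 1 of the libraries without IL-21 (adjusted p = 0.00110) and by DESeq2 (0.0191), and was not called without replicate 2 (0.544). By DESeq2, 1 of the 6 lineage factors was also called higher. Eomes is among the 10 stage genes described as higher in differentiated cells. Id2, which restrains E proteins in innate lymphocytes, ran at 4185 and 3965 RPKM without IL-21 and 4363 and 4438 RPKM with it (adjusted p = 0.905). Nfil3, which NK cell development needs, had an adjusted p of 0.883. Tbx21, Gata3, Runx3, Prdm1 and Tox did not exceed the level required for testing.

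The receptor and its signal could be followed only in part. Il2rg, the shared gamma chain, rose from 351 and 163 to 857 and 406 RPKM (1.20 ± 0.28, adjusted p = 0.0234); its adjusted p was 0.0880 without replicate 2 of the libraries without IL-21 and 0.113 without IL-21 replicate 1. Ifnar2, a chain of the type I interferon receptor, rose from 12.3 and 5.52 to 28.5 and 17.1 RPKM (1.29 ± 0.36, adjusted p = 0.0482), and lost its call in the same fits (adjusted p = 0.136 and 0.140). Il21r itself was low, at 0.948 and 1.3 RPKM without IL-21 and 2.68 and 1.48 RPKM with it, as was Stat3, at 1.86 and 2.99 RPKM without IL-21 and 3.67 and 1.26 RPKM with it. Socs3, the feedback inhibitor that STAT3 induces, was at 0.145 and 0 RPKM without IL-21 and 0.0284 and 0.0242 RPKM with it. These 3 genes stayed under the level required for testing. Of 6 tested STAT3 target and feedback genes, 1 rose, beside a background of 6.57%. With the replicate block or with edgeR's own filter on low counts 0 rose, and 3 by DESeq2. The 1 gene that rose in the main fit rested on few counts. This was Bcl3, an atypical inhibitor of NF-kB, with 0.0424 and 0 RPKM without IL-21 and 9.31 and 2.05 RPKM with it (adjusted p = 0.0356). It had 3 counts in all without IL-21, which gave a ratio of 324 (95% interval 111 to 1574), an interval for counting error only; its adjusted p was 0.0901 without replicate 2 of the libraries without IL-21 and 0.0762 without IL-21 replicate 1. Pim2, a survival kinase, stood at 4.63 and 22.4 RPKM without IL-21 and 112 and 22.2 RPKM with it (adjusted p = 0.124) and Myc at 7.03 and 7.75 RPKM without IL-21 and 4.2 and 3.46 RPKM with it (adjusted p = 0.166).

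Ly6a, the surface protein Sca-1 that cytokines induce on lymphocytes, rose. It stood at 10.4 and 0 RPKM without IL-21 and 797 and 841 RPKM with it (log2 fold change 7.38 ± 1.64, adjusted p = 0.0189), so the 2 IL-21 libraries were alike and the lower of them was over 70 times the higher library without IL-21. Of 53 interferon-stimulated genes 18 were tested, and 3 rose (Ly6a, Ly6e and Gbp4, the last of which lost its call without IL-21 replicate 1, adjusted p = 0.191, and without replicate 2 of the libraries without IL-21, 0.130), 11 had both IL-21 libraries above both others, and the median log2 fold change was 0.59. The backgrounds were 6.57% and 21.6%. The number that rose was 8 without replicate 1 of the libraries without IL-21, 5 by DESeq2 and by limma-voom, and 2 without IL-21 replicate 1 or with edgeR's own filter on low counts. Ly6e stood at 519.7 and 333 RPKM without IL-21 and 1456 and 771 RPKM with it (1.28 ± 0.19, adjusted p = 0.00194). Ifitm3, an antiviral membrane protein, was at 4.65 and 0.0354 RPKM without IL-21 and 48.7 and 53.6 RPKM with it (4.53 ± 1.38, adjusted p = 0.0624). It was called by DESeq2 and by limma-voom (adjusted p = 0.00122 and 0.0185). Ifitm1 and Ifitm2 had adjusted p-values of 0.889 and 0.174. Of 15 tested genes of MHC class I and antigen processing, 3 rose (H2-T22, H2-T23 and Erap1) and the median was 0.68. Erap1, which trims peptides for class I, had an adjusted p of 0.0436 and lost its call without IL-21 replicate 1 (adjusted p = 0.309) and without replicate 2 of the libraries without IL-21 (0.147). H2-T23, which encodes the ligand of the NKG2A receptor, stood at 22.8 and 18.8 RPKM without IL-21 and 108 and 43 RPKM with it (1.71 ± 0.35, adjusted p = 0.0118; 0.0602 without IL-21 replicate 1), and H2-T22 at 2.11 and 3.11 RPKM without IL-21 and 20.9 and 8.44 RPKM with it (2.31 ± 0.43, adjusted p = 0.00803). Without IL-21 replicate 1, 1 of the 15 genes was called, and 7 without IL-21 replicate 2.

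Of 10 tested secreted cytokines and chemokines, 1 rose (the background was 6.57%). Ccl5, the chemokine that draws T and NK cells, stood at 2719.7 and 3478 RPKM without IL-21 and 9576 and 13973 RPKM with it (1.89 ± 0.31, adjusted p = 0.00361), with no overlap. Ifng, interferon gamma, was at 105 and 0.872 RPKM without IL-21 and 152 and 79.5 RPKM with it; its 2 libraries without IL-21 differed over 100-fold, and it was not called (adjusted p = 0.629), except without replicate 1 of the libraries without IL-21 (log2 fold change 6.81, adjusted p = 0.000455). Xcl1, the ligand of cross-presenting dendritic cells, was at 9672 and 6296 RPKM without IL-21 and 5511 and 4392 RPKM with it (adjusted p = 0.0761). Of 10 costimulators and checkpoints, 1 rose, near the background of 6.57%. Their median log2 fold change was 0.94, and it ran from 0.53 (without IL-21 replicate 1) to 1.23 (without replicate 1 of the libraries without IL-21) when 1 library was left out. Tnfsf4, the ligand of OX40, had 0 counts without IL-21 and 30.9 and 5 RPKM with it, at least 325-fold higher (adjusted p = 0.000123). Tnfrsf18 and Cd96 were higher by less than 2-fold (log2 fold change 0.98 ± 0.27 and 0.88 ± 0.21, adjusted p = 0.0444 and 0.0242). Of the 30 tested genes of the NK receptor list, Klrg1 was called, higher, and the median was -0.08. Without IL-21 replicate 2, 1 was called higher and 3 lower, and 3 and 2 without replicate 1 of the libraries without IL-21. Klrb1, a lectin of the NKR-P1 family that is not in that list and was chosen after its values were seen, fell, from 60.5 and 90.7 to 24 and 19 RPKM (-1.92 ± 0.40, adjusted p = 0.0130, and not called without IL-21 replicate 1). The receptor Klrb1c, which carries the NK1.1 epitope, fell by less than 2-fold, from 577 and 519 to 406 and 366 RPKM (-0.57 ± 0.14, adjusted p = 0.0330).

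Genes of cell division were among the largest rises. Ccnb2 is in the mitosis list, while Cenpk, Ckap2 and Esco2 are outside the lists of mitosis and DNA replication. They were grouped with division after their ranks were seen. Of 31 mitosis genes 19 were tested, of which 12 rose and 0 fell (the background was 6.57%), 13 had both IL-21 libraries above both others (background 21.6%), and the median log2 fold change was 8.61, or 5.37 with the 6 genes at 0 counts in both libraries without IL-21 set to their lower bound. Of all 31 genes, whether tested or not, 26 to 31 exceeded 1 RPKM in the 12 libraries of 0, 6 and 24 h, 8 and 3 at 72 h without IL-21, and 26 and 14 at 72 h with it. Among the 19 tested genes, which the limit of 10 RPKM had chosen, 6 and 1 did without IL-21 and 19 and 12 with it. Cks2, a small subunit of cyclin-dependent kinases, behaved differently from the rest, with 194 and 212 RPKM without IL-21 and 147 and 162 RPKM with it (adjusted p = 0.402). The other 18 genes summed to 1092 to 1224 RPKM in the 4 libraries of 24 h, to 17.9 and 0.821 RPKM at 72 h without IL-21, and to 187.2 and 110.6 RPKM at 72 h with IL-21. The level at 72 h lay under that at 24 h in both conditions, and the libraries without IL-21 lay lowest. In bulk libraries, fewer dividing cells and less of each transcript per cell cannot be told apart.

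Ccnb2, a cyclin that drives entry into mitosis, had 0 counts in both libraries without IL-21 and 46 and 35.8 RPKM with it, at least 676-fold higher (adjusted p = 5.39e-06). Its partner cyclin Ccnb1 stood at 0.0166 and 0.0114 RPKM without IL-21 and 6.55 and 5.2 RPKM with it (adjusted p = 3.09e-07). The kinetochore genes Ndc80 and Nuf2, which tie chromosomes to the spindle, and the spindle motor Kif11 were also at 0 counts without IL-21 (at least 131-, 153- and 41.3-fold higher). Nuf2 was uneven, with 4.88 and 0.199 RPKM. Hmmr and Tpx2, both of the spindle, had 1 and 2 counts without IL-21 in all, and their ratios were 822 (95% interval 147 to 32518) and 545 (95% interval 150.5 to 4505). The kinases Aurka and Aurkb rested on 1 library: they reached 7.79 and 2.34 RPKM in IL-21 replicate 1 and 0 counts in the other 3, and without that library nothing remained of their rise (adjusted p = 1 for both). Ube2c, which feeds the anaphase-promoting complex, stood at 3.71 and 0.0185 RPKM without IL-21 and 41.7 and 24.3 RPKM with it (adjusted p = 0.0419; 0.0817 without IL-21 replicate 1). Cenpe, a kinetochore motor, and Nusap1, a spindle protein, stood at 0 and 0.0111 RPKM without IL-21 and 2.41 and 3.3 RPKM with it and at 0.259 and 0.136 RPKM without IL-21 and 8.48 and 4.57 RPKM with it (adjusted p = 3.51e-05 and 7.64e-06). In all 4 fits that left out 1 library, 9 of the 12 were called. Fewer genes were detected in the libraries without IL-21 (10728 and 11671) than in those with it (14004 and 12004). In the same order, the sum of the 18 genes other than Cks2 was 17.9 and 0.821 RPKM without IL-21 and 187.2 and 110.6 RPKM with it. The part of gene detection in these values was not tested. Among the 12 largest rises, Cenpk (kinetochore), Ckap2 (spindle) and Esco2 (cohesion of sister chromatids) also serve division, at least 306-, 183- and 175-fold higher.

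**Figure D3:**
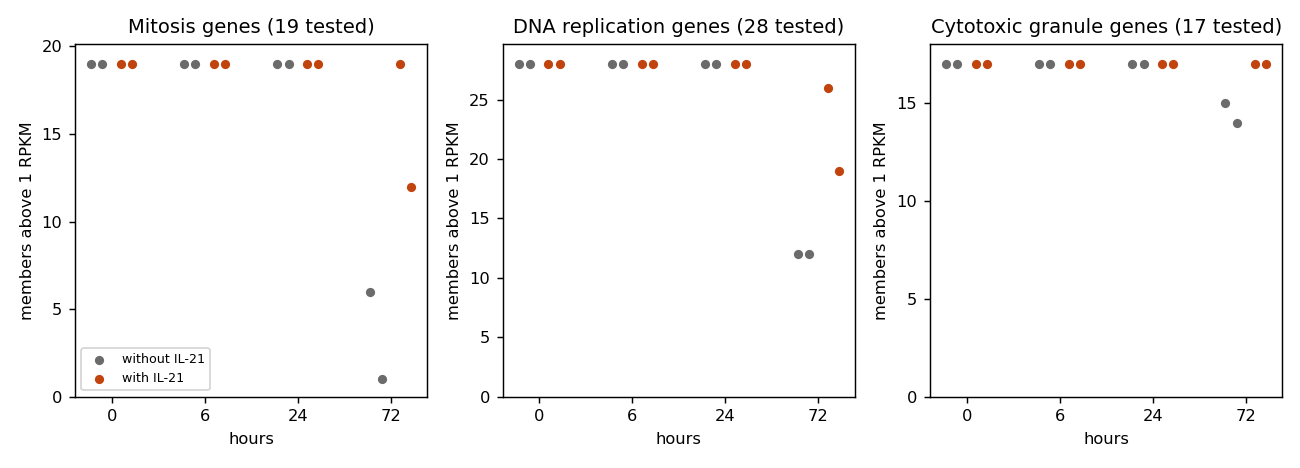
Number of tested members above 1 RPKM (y) in each library at 0, 6, 24 and 72 h (x), for mitosis, DNA replication and cytotoxic granule genes, with IL-21 in orange and without in grey. The limit of 10 RPKM that chose the tested members bears on their numbers at 0, 6 and 24 h. At 72 h, 6 and 1 of 19 mitosis genes were above 1 RPKM without IL-21 and 19 and 12 with it.

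Promoters of many mitosis genes carry a CCAAT box, the site of NF-Y, and the cell cycle homology region TTTGAA, where complexes of cell cycle repression and activation bind. Both motifs were added with the results known and searched on both strands, as CCAAT or ATTGG and as TTTGAA or TTCAAA; they do not overlap each other. Of 16 tested mitosis genes with a RefSeq window, 10 held TTTGAA (62.5%) and 12 held CCAAT (75.0%). Of the 2517 tested genes with a window, 16.3% and 45.1% did. Among the 10 mitosis genes called higher with a window, 6 held TTTGAA and 7 CCAAT (60.0% and 70.0%). The motifs thus went with the list and were no more frequent among its genes that rose. Among all 170 higher genes with a window the shares were 20.6% and 50.6%. TTCNNNGAA was in 0 of the 16. Among mitosis genes at 0 counts without IL-21, the window of Nuf2 held neither TTTGAA nor CCAAT, and that of Ndc80 held no CCAAT. The windows of 2 mitosis genes that were at 0 counts without IL-21 were picked after their values were seen and are shown with both motifs in capitals, Ccnb2 at chr9:70421505-70421804 (minus strand) and Kif11 at chr19:37376132-37376431 (plus strand).
Ccnb2: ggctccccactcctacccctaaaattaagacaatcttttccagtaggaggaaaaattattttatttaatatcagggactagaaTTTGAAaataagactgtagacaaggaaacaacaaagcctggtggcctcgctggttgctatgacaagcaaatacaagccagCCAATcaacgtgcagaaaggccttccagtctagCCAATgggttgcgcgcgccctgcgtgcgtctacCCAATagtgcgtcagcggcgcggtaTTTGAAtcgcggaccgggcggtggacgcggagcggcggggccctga
Kif11: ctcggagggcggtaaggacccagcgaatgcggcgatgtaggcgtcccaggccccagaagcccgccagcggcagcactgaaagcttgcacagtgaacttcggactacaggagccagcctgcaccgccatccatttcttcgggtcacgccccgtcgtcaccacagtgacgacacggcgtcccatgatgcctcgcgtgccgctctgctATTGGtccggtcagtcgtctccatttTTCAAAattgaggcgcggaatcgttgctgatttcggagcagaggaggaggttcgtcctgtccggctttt
In Ccnb2, CCAAT began at positions -87, -54 and -21 and TTTGAA at -167 and 5. In Kif11, the CCAAT box (ATTGG) began at -45 and TTCAAA at -19. These are letters in a window, with no measurement of what bound there.

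DNA replication genes were less uniform. Of 49 genes of the list 28 were tested, of which 11 rose and 0 fell (the background was 6.57% and 1.51%). Without IL-21 replicate 2, 13 rose and 2 fell, and without replicate 1 of the libraries without IL-21, 15 and 2 (median 2.26). The median log2 fold change of the 28 was 1.31, but the summed level was 516 and 457 RPKM without IL-21 and 512 and 463 RPKM with it. Rpa3, a subunit of the single-strand binding complex, stood at 320.0 and 278 RPKM without IL-21 and 134 and 241 RPKM with it (adjusted p = 0.312). The number of members above 1 RPKM was 12 and 12 of 28 without IL-21 and 26 and 19 with it. Gins1 and Gins2, of the complex that activates the replicative helicase, stood at 0 and 0 RPKM without IL-21 and 2.74 and 3.93 RPKM with it and at 0 and 0.0117 RPKM without IL-21 and 0.787 and 0.941 RPKM with it (adjusted p = 3.06e-05 and 4.66e-05). The helicase subunits Mcm3 and Mcm4 stood at 0.0653 and 0 RPKM without IL-21 and 2.79 and 2.08 RPKM with it and at 0.0195 and 0.214 RPKM without IL-21 and 2.64 and 4.2 RPKM with it (adjusted p = 0.00198 and 0.00465). Rfc3, which loads the sliding clamp, stood at 0.485 and 0.492 RPKM without IL-21 and 11.1 and 4.35 RPKM with it (3.83 ± 0.32, adjusted p = 3.06e-05), and the clamp itself, Pcna, at 72.7 and 37.1 RPKM without IL-21 and 135 and 74.7 RPKM with it (0.85 ± 0.26, adjusted p = 0.0623). Gins1, Gins2, Mcm3, Mcm4, Rfc3 and Rpa1 were called in all 4 fits that left out 1 library, whereas Rrm2, Prim1, Mcm6 and Tyms lost their calls without IL-21 replicate 1 (adjusted p = 0.208, 0.142, 0.141 and 0.0715). Without IL-21 replicate 1, 7 of the 28 replication genes and 9 of the 19 mitosis genes were called, with medians of 0.64 and 3.97.

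Among metabolic genes, part of the list of cholesterol synthesis rose (the background was 6.57% higher and 1.51% lower). Of 33 genes of cholesterol and fatty acid synthesis 10 were tested, of which 5 rose and 0 fell (3 and 1 without IL-21 replicate 1), and the median log2 fold change was 1.29; the summed level was 74.6 and 51.7 RPKM without IL-21 and 198.8 and 102.9 RPKM with it. Idi1, which makes dimethylallyl diphosphate, stood at 6.65 and 5.28 RPKM without IL-21 and 15.2 and 12.1 RPKM with it (1.12 ± 0.19, adjusted p = 0.00358). Pmvk, phosphomevalonate kinase, had 0 counts without IL-21 and 8.09 and 5.48 RPKM with it, at least 124-fold higher (adjusted p = 3.06e-05). Ebp, Msmo1 and Sc5d, of the later steps, had log2 fold changes of 1.17 ± 0.24, 1.93 ± 0.45 and 1.91 ± 0.43. Msmo1 and Sc5d lost their calls without IL-21 replicate 1 (adjusted p = 0.0862 and 0.0972), Sc5d also without replicate 2 of the libraries without IL-21 (0.0619), and there Ebp fell under the fold limit (log2 fold change 0.87). Fdft1, squalene synthase, was not called (adjusted p = 0.987). Of 9 glycolysis and hypoxia genes, 1 rose, Pgk1, with 11.9 and 15.8 RPKM without IL-21 and 38.4 and 33.9 RPKM with it (1.29 ± 0.25, adjusted p = 0.00990). Psat1 and Psph, of serine synthesis, rose (log2 fold change 3.04 ± 0.61 and 2.49 ± 0.66, adjusted p = 0.0115 and 0.0380) and lost their calls without IL-21 replicate 1 (adjusted p = 0.0548 and 0.102). Of 59 nuclear respiratory chain genes, 2 rose, with a median of -0.03. Without IL-21 replicate 2, 1 rose and 8 fell and the median was -0.56, whereas without IL-21 replicate 1, 0 were called and the median was 0.20. With the replicate block 0 were called, and 5 rose without replicate 1 of the libraries without IL-21. Of the 2, Uqcrc2 was not called without either IL-21 library or without replicate 2 of the libraries without IL-21.

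The 13 transcripts encoded by the mitochondrial genome tended lower with IL-21, but 2 were called (background 1.51% lower). With the replicate block, or with edgeR's own filter on low counts, 0 were called. All 13 had a log2 fold change below 0, with a median of -0.92, 12 had both IL-21 libraries below both others (background 16.6%), and 2 fell, mt-Nd1 and mt-Nd2, both subunits of complex I, which lost their calls without replicate 2 of the libraries without IL-21 and without IL-21 replicate 1. The summed level of the 13 was 46204 and 57613 RPKM without IL-21 and 25257 and 31389 RPKM with it. It was also lower with IL-21 at 24 h (28316 and 27777 against 13801 and 15433 RPKM) and at 6 h (24775 and 24875 against 18584 and 13064 RPKM). At 0 h the groups overlapped (25889 and 27866 against 33825 and 25541 RPKM). In fits that left out 1 library, 0 to 5 of the 13 fell. Of 74 ribosomal protein genes 0 were called, 12 had a log2 fold change above 0, and the median was -0.34. Without IL-21 replicate 2, 13 of the 74 fell and the median was -0.64, whereas without IL-21 replicate 1, 0 were called and the median was -0.10. Of 17 genes of ribosome biogenesis 0 were called, with a median of -0.41. Of 19 chaperones, 12 apoptosis genes, 9 cell cycle brakes and 8 oxidative stress genes 0 were called, with medians of 0.13, 0.10, 0.39 and 0.01. Without 1 library this changed: without replicate 1 of the libraries without IL-21, 4 chaperones and 3 apoptosis genes were called higher and 1 of each lower, and without IL-21 replicate 1, 2 chaperones and 1 brake were called lower. Derl1 was the 1 called higher of 21 endoplasmic reticulum stress genes and Ier3 the 1 of 4 immediate early genes (background 6.57%). Itgb2 (higher) and Rgs1 (lower) were the 2 called of 12 residency, homing and integrin genes (background 8.08% in either direction). Derl1 and Itgb2 lost their calls without replicate 2 of the libraries without IL-21 and without IL-21 replicate 1. Rgs1, which dampens chemokine receptor signals, stood at 60.2 and 42.5 RPKM without IL-21 and 23.2 and 26 RPKM with it (-1.09 ± 0.25, adjusted p = 0.0226; 0.102 without IL-21 replicate 1).

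The falls were smaller in number and mostly of genes outside the lists. AI597479, a gene of unassigned function, had the lowest log2 fold change, with 11.8 and 11.4 RPKM without IL-21 and 0.119 and 0.122 RPKM with it (-6.65 ± 0.84, adjusted p = 0.000497). Acyp1, an acylphosphatase, stood at 54.2 and 88.3 RPKM without IL-21 and 5.51 and 5.66 RPKM with it (-3.76 ± 0.45, adjusted p = 0.000308), and its 2 IL-21 libraries were nearly equal. Fhit, a dinucleoside hydrolase at a fragile site, stood at 20.5 and 24.4 RPKM without IL-21 and 3.74 and 4.21 RPKM with it (-2.56 ± 0.45, adjusted p = 0.00520). Mterf1b, of a family that ends mitochondrial transcription, stood at 39.4 and 42.6 RPKM without IL-21 and 5.55 and 7.71 RPKM with it (-2.66 ± 0.45, adjusted p = 0.00414). The other 8 of the 12 largest falls were Ddx10, Gm29243, Gm5141, Luc7l2, A330069E16Rik, Fra10ac1, Anp32e and Pycrl, with log2 fold changes from -2.84 to -2.14. Of the 12, AI597479, Acyp1, Fhit, Mterf1b and A330069E16Rik were called in all 4 fits that left out 1 library, and the others lost their call in at least 1 of them.

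The remaining large rises had no common list. Gnpda1, which turns glucosamine phosphate into fructose phosphate, Adora2b, the low-affinity adenosine receptor, Tpgs1 and Tuba4a, of tubulin modification and tubulin, and Yif1b, of vesicle transport, had 0 counts without IL-21. With IL-21 they were at least 369.9-, 238-, 224-, 189- and 182-fold higher. Gnpda1 and Tuba4a were uneven between the 2 IL-21 libraries (31.6 and 1.04 RPKM, and 10.3 and 0.464 RPKM).

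The effect at 72 h was then set against that at 24 h, in other libraries of the same time course. At 24 h, 12 genes were called higher (0.343%) and 46 lower (1.31%), 1.66% in all. At 6 h, 21 (0.599%) and 48 (1.37%) were called, 1.97% in all, and at 0 h 0 genes were called (110 with an unadjusted p below 0.05; edgeR). The difference of the 2 effects was itself called for 148 genes (4.22%), 127 of them (3.63%) with the higher log2 fold change at 72 h and 21 (0.599%) with the lower. These counts share 1 estimate of the spread over all 16 libraries. With only the groups compared in each fit, 367 genes were called at 24 h, 0 at 72 h and 46 for the difference, so which time had more calls depends on that estimate. Of the 12 and 46 genes called at 24 h, 5 higher (Gzmb, Ly6a, Lilr4b, Bzw2 and Hsd17b10) and 5 lower (Acyp1, Fhit, Clk1, Klrb1 and Zfp945) were called the same way at 72 h, and Ccl5 was called in opposite directions. At 24 h the log2 fold change of Gzmb was 1.94, that of Ly6a was 8.01, and those of Acyp1 and Fhit were -2.59 and -3.12. Ccl5 stood at 946 and 1013 RPKM without IL-21 and 339.5 and 315 RPKM with it at 24 h, a log2 fold change of -1.68 (adjusted p = 0.0215), and the difference between times was 3.57 (adjusted p = 0.000610). Prf1 was called higher at 24 h (11.9 and 12.8 against 62.9 and 51.9 RPKM, log2 fold change 2.11, adjusted p = 0.0348) and not at 72 h, but the difference between the times was not called (-1.34, adjusted p = 0.252). The mitosis list had 0 calls at 24 h and a median of 0.07, and 9 of its 19 genes were called for the difference between times. For DNA replication the median was 0.43 at 24 h, with 0 calls, and 7 of 28 were called for the difference. The median of the granule list at 24 h was 0.37. Without any 1 library of 24 h, 1 to 5 genes were called at that time, so the count of shared genes rests on all 4 of its libraries.

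**Figure D4:**
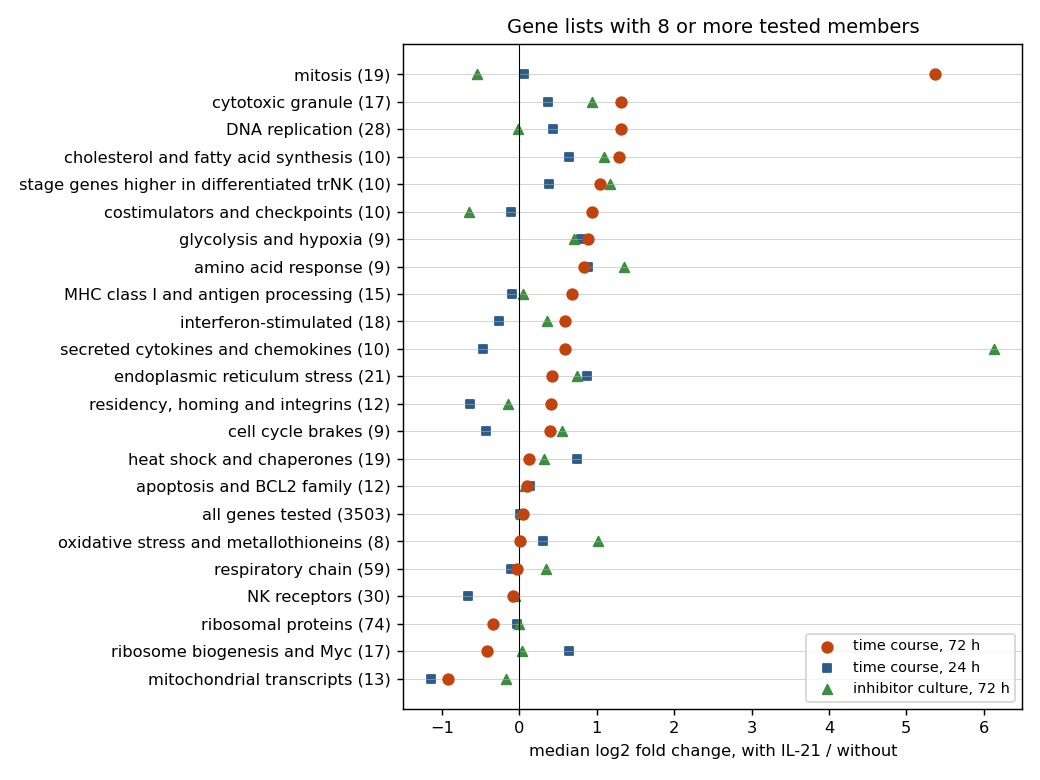
Median log2 fold change with IL-21 over without (x) of each gene list with 8 or more tested members (y, number tested at 72 h in parentheses), for the time course at 72 h (orange circles, genes at 0 counts set to their lower bound), the time course at 24 h (blue squares) and the inhibitor culture at 72 h (green triangles). The mitosis list stands at 5.37 at 72 h in the time course, 0.07 at 24 h and -0.54 in the inhibitor culture, whereas the granule list is above 0 in all 3; the value of 6.13 for secreted cytokines in the inhibitor culture is a fitted value over 8 genes, not set to a bound.

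A second experiment of the series cultured cells for 72 h with and without 20 ng/ml IL-21, beside a group with the STAT3 inhibitor Stattic, which is not compared here. It shares no library with the time course. The study describes its input as trNK-V of gd6.5, as in the time course, while the labels say uterine trNK and live NK1.1+ lymphocytes. There, 12 genes were called higher and 0 lower of 4159 (0.289%; 381 had an unadjusted p below 0.05). Of these 12, 9 were also tested in the time course. Among those 9, 6 were among the 230, namely Gzmb, Spp1, Ly6a, Bcl3, Pltp and Gpr18, beside 176 of all 2846 genes tested in both. With the replicate block 1 gene was called in that culture, and without replicate 1 of its libraries without IL-21 2 were, so the count of shared genes and the adjusted p-values that follow rest on the unblocked fit with all its libraries. Of 176 of the 230 genes tested in both, 101 had a log2 fold change above 0 in the inhibitor culture, beside 1489 of all 2846 genes tested in both, and 30 were higher with an unadjusted p below 0.05, beside 144 of 2846. Of 32 of the 53 lower genes tested in both, 22 were lower there and 6 had an unadjusted p below 0.05, beside 120 of 2846. Gzmb stood there at 2376 and 1756 RPKM without IL-21 and at 20262 and 27116 RPKM with it (log2 fold change 3.70, adjusted p = 0.0136), Spp1 at 2295 and 1298 and 31497 and 20120.5 RPKM (4.05, adjusted p = 0.0325), and Ly6a at 47.6 and 7.88 and 4722 and 2985 RPKM (7.33, adjusted p = 0.0325). Prf1 was called there (4.08, adjusted p = 0.0139), and Klrg1 had a log2 fold change of -0.16 (adjusted p = 0.955).

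Mitosis genes were not called in that culture. Of 10 mitosis genes tested there, 1 had a log2 fold change above 0, 0 were called and the median was -0.54; Ccnb2 was at 73.5 and 55.5 RPKM without IL-21 and 36.3 and 27 RPKM with it (log2 fold change -0.83, adjusted p = 0.774). Its libraries without IL-21 thus held Ccnb2 at levels that the time course libraries lacked at 72 h. A test of the difference between the 2 cultures over 4230 genes (edgeR) called 0 genes, with 305 at an unadjusted p under 0.05, but it also called none of the changes put into simulated data, so this count says nothing about whether the cultures differed. DESeq2 called 115 genes and limma-voom 1. Without replicate 1 or 2 of the time course libraries without IL-21, edgeR called 387 and 103.

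The sorted subgroups of gd8.5 give a scale for these levels, with no test. Gzme ran at 46.5 and 65.5 RPKM in trNK-V, 353 and 325 in trNK-D and 3503 and 4379 in trNK-T, beside 134 and 50.8 RPKM at 72 h with IL-21. For Gzmb the same 3 subgroups stood at 1389 and 1845, 4712 and 7895 and 7896 and 13081 RPKM, with the 72 h libraries with IL-21 at 4336 and 1881 RPKM. Prf1 ran at 266 and 226, 665 and 461 and 844 and 984 RPKM, all above the 4 libraries of 72 h. The libraries were prepared in separate experiments, so levels across them are set side by side only.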

How the data were processed

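The authors deposited raw counts, whole numbers per gene with no normalization, for each library. The submitters' processing notes list HISAT2 2.1.0, featureCounts and mm10, whereas the methods name RSEM. For cDNA, the labels give a Vazyme single-cell kit and the methods SMART-Seq HT. No unique molecular identifiers or strand use are stated, so counting intervals cover counting error only, and overlapping genes cannot be told apart.

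RPKM were computed here from total counts and the deposited gene lengths. The comparison used genes over 10 RPKM in each library of at least 1 group, and was run with edgeR 4.0.16 (TMM scaling, quasi-likelihood test, 1 fit of the 16 time course libraries, or of the 6 inhibitor culture libraries) in R 4.3.3. P-values were adjusted by Benjamini-Hochberg, with calls at an adjusted p under 0.05 and a change of more than 2-fold. The difference between the cultures used 8 libraries. Standard errors are the log2 fold change divided by the root of F. Groups at 0 were taken as 3 counts per library. The alternatives used DESeq2 1.42.0, limma 3.58.1, other filters and scaling, a replicate block and left-out libraries, and the code was tested on simulated data.

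Named genes were taken from non-overlapping calls (the top 12 in each direction by log2 fold change), called members of pathway lists and genes the study names; other genes named were chosen after their values were seen. Members, lists and tests were chosen with earlier results of these data known. Single-cell, gestation and chromatin files were not used here, and some genes are not reported here.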

Additional observations from a re-analysis of the deposited data

Results flagged for a closer look

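The effect of IL-21 at 72 h differed from that at 24 h, by the edgeR test of the difference itself, for 148 genes (4.22% of those tested). Of the 87 tested genes named here 36 were among them, 31 with the higher log2 fold change at 72 h and 5 with the lower. Most named genes were picked for their calls at 72 h, so a high share among them was built in. All values in this part are of the difference 72 h minus 24 h. Where counts were present without IL-21, the log2 difference was 8.54 for Ccnb1, 8.92 for Cenpe, 9.13 for Hmmr, 5.00 for Nusap1 and 8.86 for Tpx2 among mitosis genes, and 6.14 for Gins2, 5.41 for Mcm3, 4.11 for Mcm4, 3.50 for Rfc3 and 3.28 for Rpa1 among DNA replication genes. It was 7.30 for Gzmd, 3.57 for Ccl5, 2.31 for Ifnar2, 2.27 for H2-T23 and 1.49 for Ly6e. The fitted values of low genes rest on few counts without IL-21 at 72 h, summed over both libraries: 1 for Hmmr, 2 for Tpx2 and for Gins2, 4 for Ccnb1 and for Cenpe, 7 for Mcm3 and 14 for Gzmd.

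The log2 difference was negative for AI597479 (-7.68), Ddx10 (-3.88), Fra10ac1 (-2.75), Mterf1b (-2.68) and Anp32e (-2.65). Genes with 0 counts in both libraries without IL-21 at 72 h have no bounded difference, and only the adjusted p of edgeR is given. In the mitosis list it was 1.45e-05 for Ccnb2, 0.000782 for Kif11, 5.44e-06 for Ndc80 and 0.00925 for Nuf2. For Gins1, of the DNA replication list, it was 0.000163. Outside both lists it was 1.22e-06 for Cenpk, 0.000294 for Ckap2 and 1.39e-05 for Esco2. It was 0.000458 for Gzme, 0.000922 for Tnfsf4, 0.00822 for Gnpda1, 0.00813 for Ier3, 0.000121 for both Pmvk and Tpgs1, 0.0117 for Tuba4a and 0.000163 for Yif1b. Fewer genes were detected in the 2 libraries without IL-21 at 72 h (10728 and 11671) than at 24 h (13345 to 15065). The part of gene detection in the differences was not tested. Groups of 2 libraries are too small for a test of single outlying libraries.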

How the results depend on the processing

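The 283 calls at 72 h kept their sign under every alternative tried except without IL-21 replicate 1, where 14 did not. For 216 of the 230 higher genes and all 53 lower ones the libraries did not overlap. Leaving out 1 library could thus hardly turn their sign, and its being kept is no measure of robustness. Of the 283 calls, 276 remained with RLE scaling, 281 by DESeq2 and 231 by limma-voom. The number called higher moved to 354 by DESeq2, 655 with edgeR's filterByExpr (14888 genes), 1265 with no filter (26407 genes) and 0 with only the groups compared, and without 1 library it ranged from 143 to 696. The number called lower moved to 121, 100, 254 and 0 in the same order and ranged from 66 to 212. At 24 h, 58 genes became 146 by DESeq2, 1 with filterByExpr, 367 with only the groups compared and 1 to 5 without 1 library. For 72 h minus 24 h, 148 became 338, 361, 840 with no filter and 46 with only the groups compared, and 64 to 769 without 1 library. In the inhibitor culture, 12 became 162 by DESeq2, 0 with filterByExpr, 146 with no filter, and 2 to 17 without 1 library. The difference between cultures, where the count of 0 carries no weight, moved from 0 to 115 by DESeq2, 1 by limma-voom and 331 with no filter, and 0 to 387 without 1 library. The causes were not tested, beyond the numbers of genes tested and of libraries fitted that the settings themselves change.

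Replicate numbers are shared by the groups, but nothing says that they pair the samples. The deviations of same-numbered libraries with and without IL-21 at 72 h correlated at 0.129, and over all pairs of groups from -0.344 to 0.407. With the replicate block, 200 genes were called higher and 53 lower at 72 h, 46 in all at 24 h, 131 for the difference between times and 0 for that between cultures, while the inhibitor culture moved to 1. Among named genes, 4 turned sign when 1 library was left out, none of them called: log2 fold changes ran from -0.30 to 1.77 for Cd27 (negative without IL-21 replicate 1), from -0.25 to 1.24 for Cd55 (negative without replicate 2 of the libraries without IL-21), from -0.20 to 0.26 for Id2 (negative without IL-21 replicate 2, and -0.02 without replicate 1 of the libraries without IL-21) and from -0.62 to 2.36 for Ifitm1 (negative without that same library). With 2 libraries a group, precision rests on few values, and a gene at 0 counts in both libraries of a group has only a bound, at a depth of 28541369 counts or more.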

Other observations

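Genes outside the named set, chosen after their values were seen, moved with IL-21 at 72 h and were called in all 4 fits that left out 1 library. Ctsa, a lysosomal carboxypeptidase, stood at 1.38 and 2.13 RPKM without IL-21 and 75.4 and 20.7 RPKM with it (log2 fold change 4.56 ± 0.74, adjusted p = 0.00298). Among surface proteins, Cd200r4, an activating receptor of the CD200 receptor family, stood at 11.1 and 6.08 RPKM without IL-21 and 68.1 and 67.7 RPKM with it (2.95 ± 0.47, adjusted p = 0.00258), Jaml, an adhesion molecule of leukocytes, at 18 and 11.2 RPKM without IL-21 and 91.3 and 38.9 RPKM with it (2.03 ± 0.38, adjusted p = 0.00830), and Cysltr2, a receptor for cysteinyl leukotrienes, at 14.4 and 16.4 RPKM without IL-21 and 51 and 42 RPKM with it (1.51 ± 0.26, adjusted p = 0.00465). H2-DMa, a chain of the peptide loader of MHC class II, stood at 18.7 and 19.9 RPKM without IL-21 and 61.8 and 53.7 RPKM with it (adjusted p = 0.00738), with a log2 fold change of -1.13 at 24 h (adjusted p = 0.0710). Lilr4b stood at 14 and 14 RPKM without IL-21 and 41.3 and 45.5 RPKM with it (1.58 ± 0.23, adjusted p = 0.00182). It was among the 5 genes called higher at both 24 and 72 h.

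Klrb1 was called lower at both times, with a log2 fold change of -1.92 at 72 h and -2.79 at 24 h. Reads of close relatives of Lilr4b, Cd200r4 and Klrb1 may be shared with them. The mitochondrial ribosomal protein genes Mrpl1 and Mrpl50 stood at 35.9 and 52.6 RPKM without IL-21 and 14.6 and 20.3 RPKM with it and at 33.5 and 70.5 RPKM without IL-21 and 21.1 and 20.1 RPKM with it (adjusted p = 0.0246 and 0.0339), and lost their calls without IL-21 replicate 1.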
